A study of Mus musculus with 5 samples.

Results

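The promoters of ubiquitin and proteasome genes were followed in a promoter capture Hi-C data set of the 2 supporting cell types of the embryonic mouse gonad. Members were the baits on chromosomes 1 to 9 whose names carry a proteasome gene (Psm), an E1 or E2 enzyme (Uba, Ube), a cullin, F-box or Kelch-like gene (Cul, Fbx, Klhl), a RING finger or tripartite motif gene (Rnf, Trim) or a ubiquitin-specific protease (Usp), with Usp29 and Ube3a left out. Names chose them among the listed baits. Baits count as listed only where an interaction within the chromosome scored at least 5 in 1 or both cell types. They came to 177 genes of the 8669 with a listed bait in either of 2 deposited tables. Counts and shares of baits below therefore leave out baits without such an interaction. The table with the original baits, which are single restriction fragments, held 103 of these genes on 142 of 7674 baits, with 604 of 28991 interactions within a chromosome. The table with the extended baits, bins with a median length of 5284 bp, held 171 of them on 223 of 11063 baits, with 1067 of 50644 interactions.

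The names also bring in genes that are not known as ubiquitin enzymes, such as Usp6nl, a regulator of small GTPases, and Klhl genes without an established ligase. Of the 248 RefSeq protein-coding genes with such names on these chromosomes, the other 71 had no listed bait and were not analysed here. The tables shared 97 of the member genes. Fbxw18, Fbxw21, Klhl31, Rnf152, Rnf169 and Ube2h had a listed original bait and no listed extended one. For 74 genes only an extended bait was listed. A gene that is not listed may still have a bait without a call.

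Sertoli cells, which enclose the germ cells of the testis, were sorted at embryonic stage E13.5 from Sox9IRES-GFP gonads in 3 libraries. Pre-granulosa cells are their counterparts in the ovary and were sorted at the same stage by the reporter Enh8-mCherry in 2 libraries. The groups therefore differed in cell type and in reporter line, which cannot be told apart. The tables give 1 CHiCAGO score per interaction for each cell type, so no value exists here for a single library, no p-value is given, and each comparison sets a pool of 3 libraries against a pool of 2. A CHiCAGO score grows as the number of ligated read pairs exceeds what is modelled for that distance. It is not a read count, the read depth behind it is unknown, and contact scores carry no marker expression by which the sorted cells could be checked. A score of 5 or more made a call, and every listed row holds a call from 1 or both cell types. A bin listed at 0 may have had no usable value.

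Ubiquitin is a small protein that is joined to other proteins in a relay of an E1 activating enzyme, an E2 conjugating enzyme and an E3 ligase. Many E3 ligases are built on a cullin scaffold, to which F-box or Kelch-like adaptors bring the substrate, while RING finger and tripartite motif proteins often act as ligases by themselves. Ubiquitin-specific proteases take the mark off again. The proteasome degrades marked proteins in a core of alpha and beta subunits, capped by a regulatory particle with a ring of ATPases. Most of these genes are active in nearly every cell, although single ligases and adaptors act in few tissues.

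Promoter sequences from RefSeq (GRCm38.p6, the assembly also called mm10, which the submitters' processing notes name for these data) are shown for 4 members that the contacts below turn on. Each runs from 250 bases before to 50 bases after the annotated start, 5′ to 3′ on the gene's strand. Klhl12 carried the bait with the most interactions (chr1:134455281-134455580, plus strand). Psma4 (chr9:54950609-54950908, plus strand) and Psmb4 (chr3:94886909-94887208, minus strand) encode core subunits of the proteasome with calls in pre-granulosa cells. Rnf181 (chr6:72362383-72362682, minus strand) was paired with Usp39 in both cell types. Capitals mark matches on either strand to the antioxidant response element core TGACNNNGC, to CCAAT or to the ETS motif CCGGAAG.
Klhl12: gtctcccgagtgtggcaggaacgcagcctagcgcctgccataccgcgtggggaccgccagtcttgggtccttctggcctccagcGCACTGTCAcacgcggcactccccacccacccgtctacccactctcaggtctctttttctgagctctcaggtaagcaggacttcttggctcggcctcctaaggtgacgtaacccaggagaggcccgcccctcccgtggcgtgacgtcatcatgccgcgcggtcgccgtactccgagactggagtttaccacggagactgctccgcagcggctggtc
Psma4: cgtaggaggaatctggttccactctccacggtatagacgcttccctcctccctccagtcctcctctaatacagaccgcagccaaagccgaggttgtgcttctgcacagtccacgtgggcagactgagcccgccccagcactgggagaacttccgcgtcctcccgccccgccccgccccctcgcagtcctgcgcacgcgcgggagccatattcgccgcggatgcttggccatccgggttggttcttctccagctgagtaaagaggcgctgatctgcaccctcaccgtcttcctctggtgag
Psmb4: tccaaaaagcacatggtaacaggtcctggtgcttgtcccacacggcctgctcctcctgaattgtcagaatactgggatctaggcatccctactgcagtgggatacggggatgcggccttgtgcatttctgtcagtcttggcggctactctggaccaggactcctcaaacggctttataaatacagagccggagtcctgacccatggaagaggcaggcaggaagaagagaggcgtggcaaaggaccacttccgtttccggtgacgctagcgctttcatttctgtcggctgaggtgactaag
Rnf181: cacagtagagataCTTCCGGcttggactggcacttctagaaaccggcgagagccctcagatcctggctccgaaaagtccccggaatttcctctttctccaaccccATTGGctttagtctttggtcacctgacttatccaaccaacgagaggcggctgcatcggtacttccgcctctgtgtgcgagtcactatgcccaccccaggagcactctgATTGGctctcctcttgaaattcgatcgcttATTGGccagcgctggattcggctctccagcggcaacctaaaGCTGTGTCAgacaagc

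The Klhl12 window held 1 match to TGACNNNGC, and the Rnf181 window held 1 match to TGACNNNGC, 3 to CCAAT and 1 to CCGGAAG. The Psma4 and Psmb4 windows held none of these letters. A RefSeq window lay at a bait of 69 member genes, with 94 windows in all. TGACNNNGC was found in 8 of the 69 genes (11.6%), against 15.0% of the 3737 genes with a window at any bait of chromosomes 1 to 9 and 14.0% of the 27025 genes of the whole RefSeq table. CCAAT was found in 23 member genes (33.3%), against 41.0% and 41.1%. CCGGAAG was found in 13 member genes (18.8%), against 11.8% and 9.93%. Those 13 were Fbxo27, Fbxo44, Fbxw2, Fbxw9, Klhl21, Psmg3, Rnf181, Rnf6, Ube2q1, Ube2v1, Usp19, Usp30 and Usp8. Among the 7 proteasome genes with a window, Psmg3 held CCGGAAG and none held TGACNNNGC or CCAAT.

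Member promoters were called with more bins in Sertoli cells than in pre-granulosa cells, and so were the promoters of the other genes. The original baits of members had 504 Sertoli calls and 236 pre-granulosa calls, a ratio of 2.14, and all baits of chromosomes 1 to 9 had a ratio of 1.93. Both cell types called 136 of the member interactions, or 27.0% of what was called in Sertoli cells (23.3 to 31.0, a 95% Wilson interval) and 57.6% of what was called in pre-granulosa cells (51.3 to 63.8). Over all baits these shares were 27.0% and 52.3%. Of the listed member interactions 22.5% were shared, beside 21.7% of all listed interactions. The intervals cover counting error only, and neighbouring bins share signal.

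The Sertoli excess was spread over many members, in a share of baits near that of all baits. With 1 added to both counts, 71 of 142 member baits (50%, 41.9 to 58.1) had at least 2-fold more Sertoli calls, beside 49.0% of all baits. At least 2-fold more pre-granulosa calls were found at 14 member baits (9.86%, 5.96 to 15.9), beside 15.6% of all baits. In both directions, a bait with 1 call against none already counted as 2-fold, and 42 of the 142 member baits had 1 listed interaction. Any Sertoli excess was seen at 97 baits (68.3%, all baits 65.2%), any pre-granulosa excess at 21 (14.8%, all baits 22.0%), and 24 were equal (16.9%, all baits 12.7%). The median log2 ratio per bait was 0.92 for members and 0.81 for all baits. When the bins of all baits of a gene were joined, 72 of 103 genes had more Sertoli bins, 16 had more pre-granulosa bins and 15 had equal numbers. Of 5432 RefSeq protein-coding genes with a bait, 3543 (65.2%) had more Sertoli bins, 1181 (21.7%) more pre-granulosa bins and 708 (13.0%) equal numbers.

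Equal calling of the cell types removed most of the excess. When each cell type took its 12025 highest scores over all baits, members had 263 Sertoli and 236 pre-granulosa calls, a ratio of 1.11. Then 25.0% of the member baits had 2-fold more Sertoli calls and 30.2% had 2-fold more pre-granulosa calls, and the same shares over all baits were 25.2% and 35.1%. The direction of the bait counts therefore turned with the number of calls, and the numbers of libraries and the depth cannot be told apart from the cell type.

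**Figure D1:**
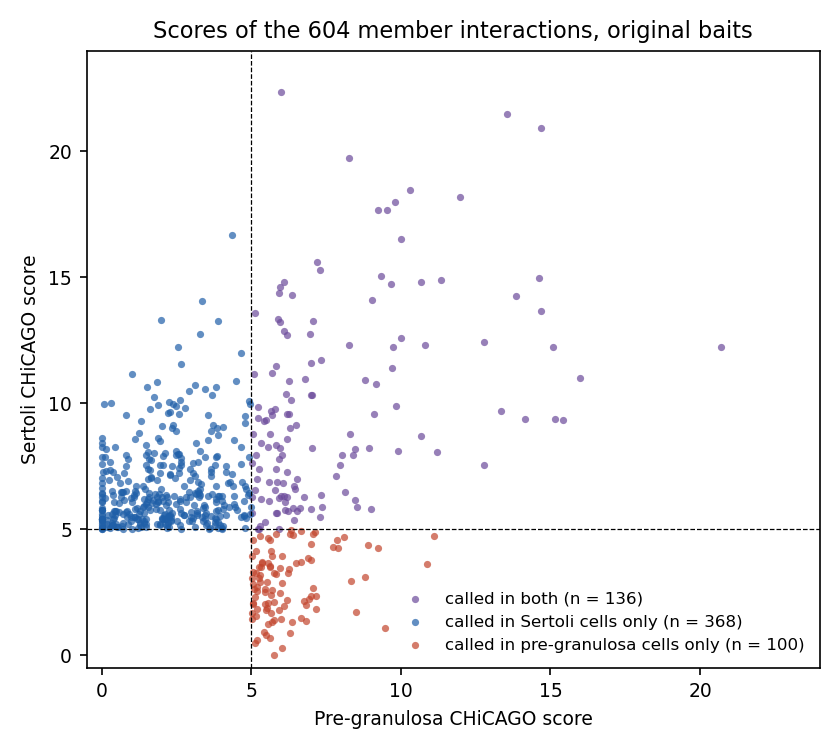
CHiCAGO scores of the 604 member interactions of the original baits, with the pre-granulosa score on the x axis and the Sertoli score on the y axis; dashed lines mark the call score of 5. Each point is 1 bait and bin: 136 were called in both cell types, 368 in Sertoli cells only and 100 in pre-granulosa cells only.

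Clear differences between the cell types were mostly on the Sertoli side. One-sided interactions, in which a call faced a score below 1, numbered 102 among members (16.9%), beside 15.4% over all baits. Sertoli cells had the call in 94 of the 102, and in 3911 of the 4468 over all baits, so most such interactions of other baits lay on the same side. Of the 94, 32 were listed at 0 in pre-granulosa cells, and 1 pre-granulosa call was listed at 0 in Sertoli cells. The extended baits gave the same order with a smaller gap: 890 Sertoli calls, 545 pre-granulosa calls and 368 shared ones, a ratio of 1.63 against 1.41 over all extended baits. There, 33.6% of the member baits had 2-fold more Sertoli calls (all baits 29.1%) and 12.1% had 2-fold more pre-granulosa calls (all baits 14.4%). Shared interactions made up 34.5% (all 34.6%) and one-sided ones 11.3% (all 10.6%).

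Contacts were unevenly spread over the members. A member bait had a median of 3 listed interactions, beside 2 over all original baits, and 42 member baits had 1. The 14 baits with 10 or more held 216 interactions, 35.8% of the total. The most at any bait was 27 among members and 35 over all original baits. Baits were not grouped by number of interactions over all baits, so the uneven spread is not read as a trait of members.

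**Figure D2:**
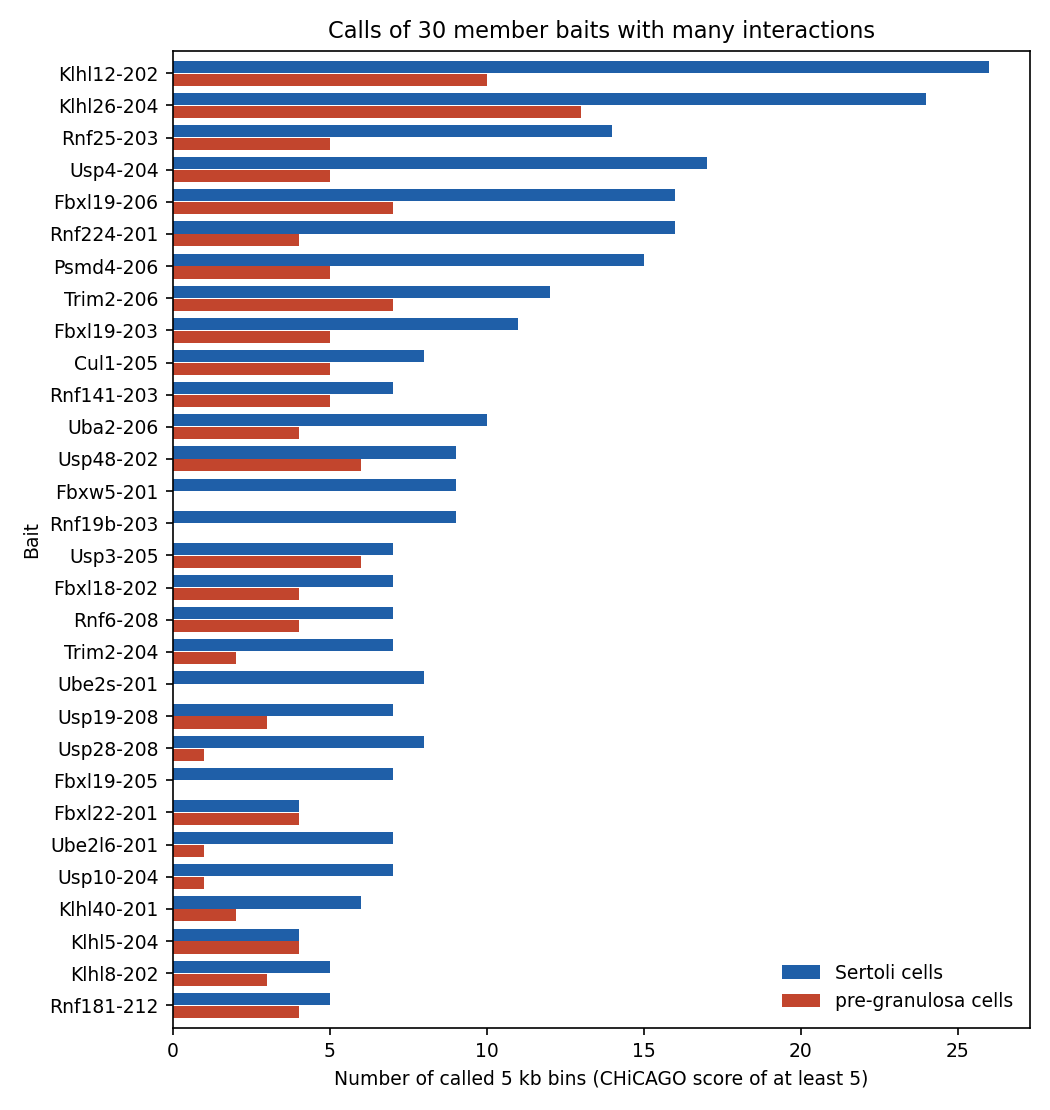
Number of called bins (x axis) for 30 member baits with many listed interactions (y axis), with blue bars for Sertoli cells and red bars for pre-granulosa cells. Klhl12-202 had 26 and 10 calls, Klhl26-204 had 24 and 13, and Rnf19b-203, Fbxw5-201 and Ube2s-201 had no pre-granulosa call.

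At the start of the relay, 3 E1 genes had original baits, with 13 Sertoli and 6 pre-granulosa calls. Uba2 encodes a subunit of the E1 for the ubiquitin-like protein SUMO, and its bait Uba2-206 (chr7:34144504-34144837) lies inside the gene, 23.7 kb from the RefSeq start. It had 10 Sertoli calls, 4 of them shared. The score was 14.2 in Sertoli cells against 13.9 in pre-granulosa cells for a bin of Uba2 itself at 13.3 kb. Over the neighbouring gene Gpi1, a glycolytic enzyme, 4 bins scored between 5.29 and 7.54 in Sertoli cells and between 0.375 and 3.79 in pre-granulosa cells. The 3 bins inside Uba2 were called in both cell types, and the Gpi1 bins in Sertoli cells. Uba7, the E1 for the interferon-induced modifier ISG15, reached into Rnf123 at 87.7 kb with 9.95 in Sertoli cells against 1.90 in pre-granulosa cells.

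Klhl26 is a Kelch-like gene. Its bait Klhl26-204 (chr8:70475849-70476267) is 0.68 kb from the RefSeq start and had 24 Sertoli and 13 pre-granulosa calls, 12 of them shared. It contacted the body of Crtc1, a coactivator of the transcription factor CREB, over a row of bins. One of those bins (chr8:70431925-70437050) scored 22.4 in Sertoli cells against 5.99 in pre-granulosa cells from Klhl26-204. Nearer to the bait, Tmem59l at 8.41 kb scored 18.5 and 10.3. Other Crtc1 bins were level from Klhl26-204, such as 8.24 and 8.93 at 59.1 kb.

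**Figure D3:**
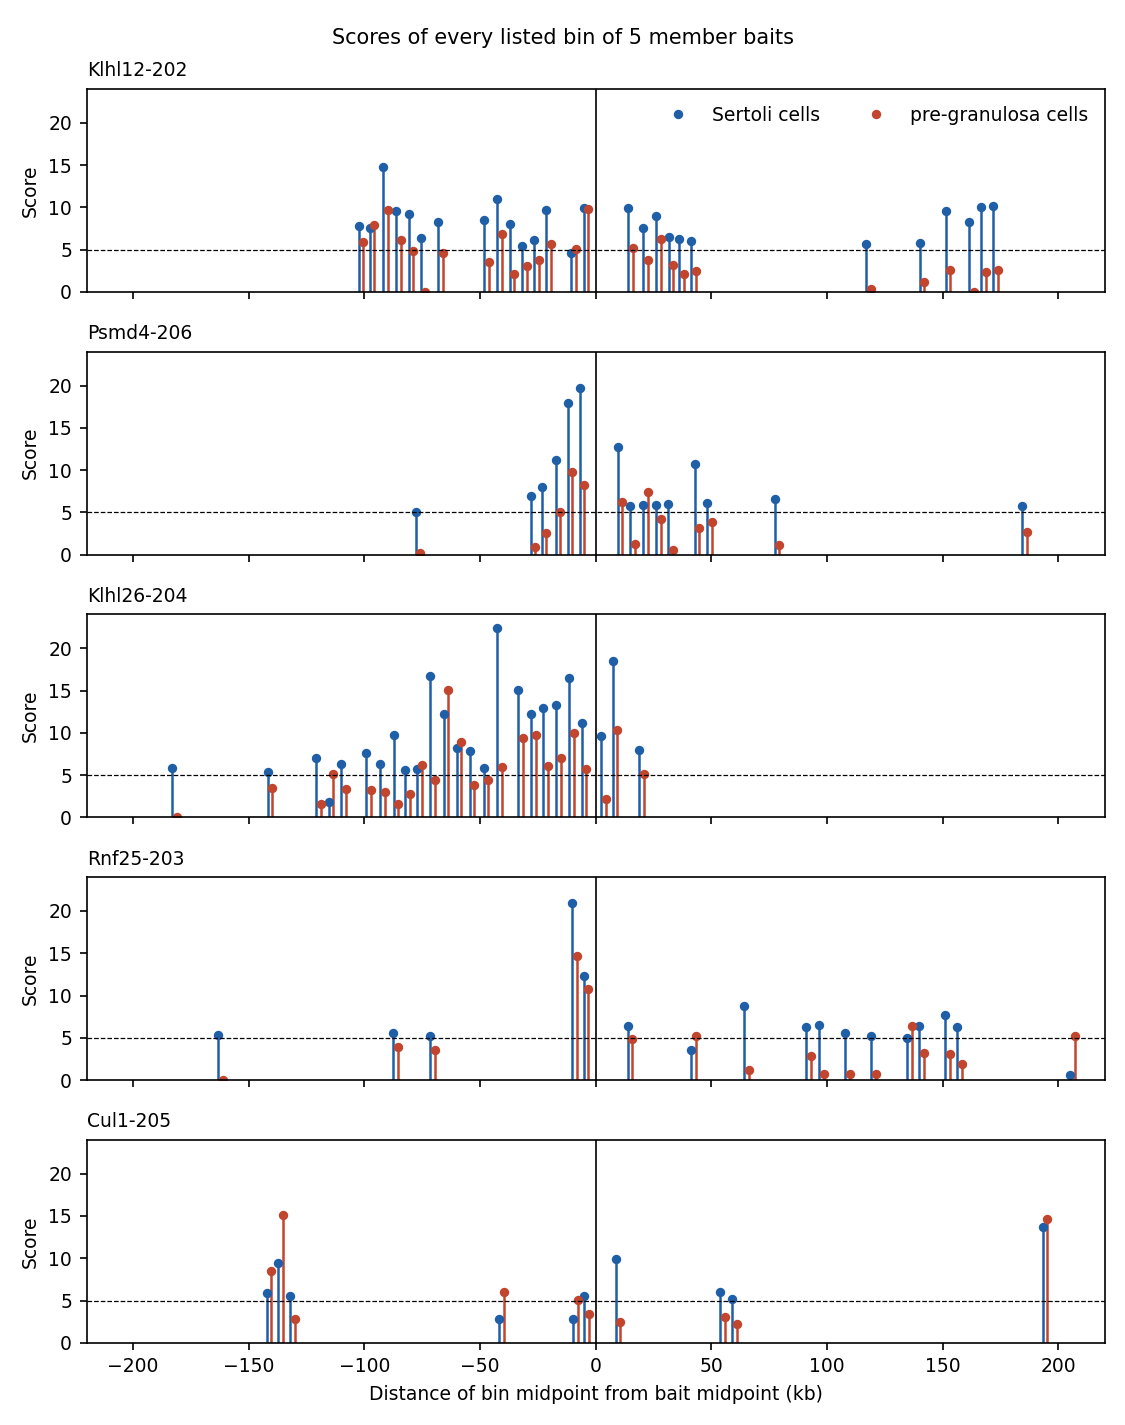
Scores (y axis) of every listed bin against its distance from the bait in kb (x axis) for 5 member baits; blue is Sertoli cells, red is pre-granulosa cells, each pair is drawn 1 kb to either side of its true distance, and dashed lines mark a score of 5. Klhl12-202 has a block of Sertoli calls beyond 100 kb, and Cul1-205 has its highest pre-granulosa score, 15.2, at 136.1 kb.

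Of the E2 enzymes, 7 genes had 8 original baits with 23 Sertoli and 8 pre-granulosa calls, and 2 of the calls were shared. Ube2s extends ubiquitin chains for the anaphase-promoting complex, and Ube2s-201 (chr7:4811442-4812810) covers its RefSeq start. Its 8 bins scored between 5.25 and 7.03 in Sertoli cells and between 0 and 2.43 in pre-granulosa cells. They included Brsk1 at 117.2 kb and Ssc5d at 116.4 and 126.6 kb. Ube2l6, the E2 for ISG15, reached Tfpi at 350.0 kb, where Sertoli cells scored 7.31 and pre-granulosa cells 0.14. Ube2m, the E2 for the cullin activator NEDD8, gave an example on the other side. Its bait Ube2m-203 had 2 calls, both in pre-granulosa cells, at Trim28 (5.13 against 2.32 in Sertoli cells) and near Zbtb45 (6.03 against 3.94). The neighbouring bait Ube2m-202 scored the Trim28 bin the other way, 12.2 in Sertoli cells against 2.54 in pre-granulosa cells. The extended bait that joins both with Chmp2a had 18 Sertoli and 12 pre-granulosa calls.

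The cullins Cul1 and Cul3 had 1 original bait each. Cul1 is the scaffold of the ligases that use F-box proteins, and Cul1-205 (chr6:47453258-47453609) had 8 Sertoli calls, 5 pre-granulosa calls and 3 in common. Distant bins outside genes had its highest score in each cell type. At 136.1 kb, towards Cntnap2, the score was 9.39 in Sertoli cells against 15.2 in pre-granulosa cells. At 194.2 kb on the other side it was 13.7 and 14.7. Inside Cul1, a bin at 9.67 kb scored 9.91 in Sertoli cells against 2.47 in pre-granulosa cells. The shared calls lay at 136.1, 141.2 and 194.2 kb, a bin at 131.0 kb was called in Sertoli cells only (5.56 against 2.77), and so were the 3 bins within the gene. Cul3-205 had 1 call in each cell type, both within Cul3.

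F-box genes, the substrate adaptors of Cul1 ligases, were the class with the most original baits, 30 of 21 genes, with 91 Sertoli calls, 41 pre-granulosa calls and 22 shared. Fbxl19-206 (chr7:127743764-127745063), 1.21 kb from the RefSeq start, had 16 Sertoli calls, and its 7 pre-granulosa calls were all among them. A bin of Bcl7c, a chromatin remodelling subunit, scored 21.5 in Sertoli cells against 13.6 in pre-granulosa cells at 70.3 kb. The adjacent bait Fbxl19-203 scored this bin 9.36 and 14.2, with the cell types in the other order. Fbxw5-201 (chr2:25499377-25501021) had 9 Sertoli calls with scores from 5.16 to 7.37, and its pre-granulosa scores ran from 0.28 to 4.02.

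Fbxw7 targets cyclin E and Myc proteins for degradation, and its baits had the longest contacts of any original member bait in both cell types. The bin chr3:85569129-85573170, 0.93 kb from Gatb, scored 8.44 in Sertoli cells against 0 in pre-granulosa cells from Fbxw7-202 at 645.9 kb. From Fbxw7-201 at 619.7 kb it scored 0 in Sertoli cells against 5.77 in pre-granulosa cells. A bin at 636.0 kb from Fbxw7-202 scored 3.10 in Sertoli cells against 8.81 in pre-granulosa cells. Fbxw7-202 thus had 1 call in each cell type on the Gatb side, in different bins.

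Pre-granulosa excesses among F-box baits were small. Fbxw9-201 had 3 Sertoli and 5 pre-granulosa calls, all but 1 over Tnpo2, a nuclear import receptor. Its Tnpo2 bins scored 8.07 and 11.2 at 19.2 kb and 14.4 and 5.91 at 13.9 kb, Sertoli cells first. Fbxo10-202 and Fbxw25-201 had 2 pre-granulosa calls each and no Sertoli call. Fbxw25 belongs to a tandem family of near-identical genes on chromosome 9, in which reads may have been split between copies, and its values are uncertain.

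Kelch-like genes encode adaptors of Cul3 ligases. They had 13 original baits with 80 Sertoli calls, 39 pre-granulosa calls and 29 shared. Klhl12 marks a coat protein of secretory vesicles with ubiquitin, and its bait (chr1:134454795-134457089) covers the RefSeq start. It had 26 Sertoli and 10 pre-granulosa calls, 9 in common. Near Tmem183a, at 90.8 kb, the score was 14.7 in Sertoli cells against 9.66 in pre-granulosa cells, and a bin 4.14 kb away scored 9.90 and 9.84. Over Adipor1, an adiponectin receptor gene, 5 bins scored 5.44 to 11.0 in Sertoli cells and 2.13 to 6.81 in pre-granulosa cells. On the other side, 6 bins of Kdm5b, a histone demethylase gene, scored 5.72 to 10.1 in Sertoli cells, and 0 to 2.62 in pre-granulosa cells. The Kdm5b bins lay at 117.8 to 172.8 kb. Each was listed through its Sertoli call alone, so the separation of the scores at 5 follows from the listing.

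RING finger genes had 29 original baits with 100 Sertoli calls, 42 pre-granulosa calls and 23 shared. Rnf25-203 (chr1:74599966-74600644) had 14 Sertoli and 5 pre-granulosa calls. Its bin over Bcs1l, a mitochondrial assembly factor, scored 20.9 in Sertoli cells against 14.7 in pre-granulosa cells at 9.25 kb, the highest lower score of any member interaction of the original baits. Farther out, the bins over the signalling ligand gene Wnt6 at 152.1 and 157.3 kb scored 7.65 and 6.30 in Sertoli cells and 3.05 and 1.85 in pre-granulosa cells. The bin over the neighbouring ligand gene Wnt10a at 206.2 kb scored 0.59 in Sertoli cells against 5.2 in pre-granulosa cells.

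Rnf224-201 (chr2:25236148-25236822) had 16 Sertoli and 4 pre-granulosa calls. Its bin over Slc34a3, a phosphate transporter gene, scored 9.36 in Sertoli cells against 15.4 in pre-granulosa cells at 7.91 kb, while bins over Grin1 and Man1b1 at 67.0 and 99.2 kb scored 6.41 and 7.87 in Sertoli cells against 0 in pre-granulosa cells. Rnf19b-203 had 9 Sertoli calls with scores from 5.59 to 11.2 and no pre-granulosa call, where no score was above 4.05. Rnf141-203 went both ways in neighbouring bins. At 189.4 kb it scored 14.6 in Sertoli cells against 5.97 in pre-granulosa cells, and at 194.6 kb 12.2 and 20.7, the highest pre-granulosa score of any member interaction of the original baits. Rnf13-201, with 1 listed interaction near Commd2, scored 0.48 in Sertoli cells against 5.12 in pre-granulosa cells.

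Tripartite motif genes had 14 original baits with 49 Sertoli calls, 21 pre-granulosa calls and 14 shared. Trim2 encodes a ligase studied in neurons, and 13 of the 14 bins of Trim2-206 (chr3:84220481-84221305) lay within 5 kb of the gene or inside it. In 5 of them both cell types reached 5, with 11.4 in Sertoli cells against 9.71 in pre-granulosa cells at 80.5 kb. The bin at 47.6 kb scored 1.34 in Sertoli cells against 5.68 in pre-granulosa cells.

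Ubiquitin-specific proteases had 29 original baits of 18 genes with 96 Sertoli calls, 45 pre-granulosa calls and 29 shared. Usp4-204 (chr9:108372349-108372729) lies inside its gene, 24.5 kb from the RefSeq start, and had 17 Sertoli calls, with 5 pre-granulosa calls all among them. Bins within Usp4 scored 6.73 to 15.6 in Sertoli cells and 2.39 to 7.29 in pre-granulosa cells, and the bin over the laminin gene Lamb2 at 115.5 kb scored 6.96 and 1.84. Usp19-208 scored a bin at 11.0 kb, just past the end of Usp19, 15.0 in Sertoli cells against 14.6 in pre-granulosa cells. From the same bait a bin of Usp4 at 113.3 kb scored 9.998 and 0.33, and another at 127.0 kb 1.67 and 5.67. Usp10-204 reached Zdhhc7, a palmitoyltransferase gene, at 131.5 kb with 9.96 in Sertoli cells against 0.07 in pre-granulosa cells, the largest difference towards Sertoli cells of any member interaction of the original baits on an inverse hyperbolic sine scale. Usp5-208 had an opposite case near the T cell gene Cd4 at 62.5 kb, with 0.28 in Sertoli cells against 6.01 in pre-granulosa cells.

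**Figure D4:**
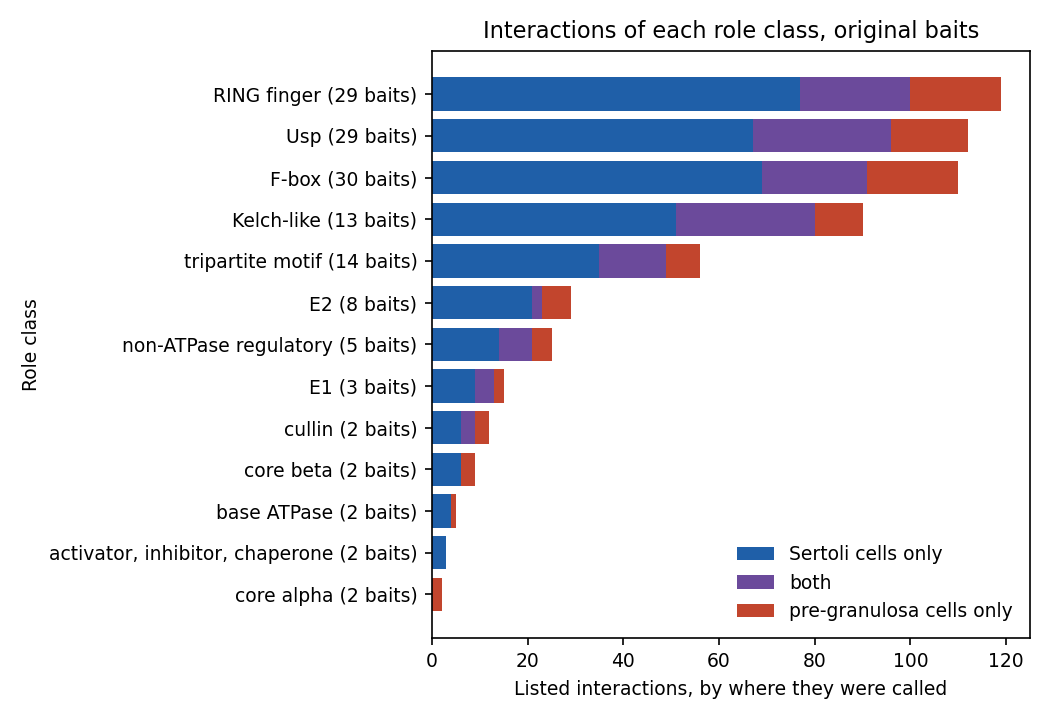
Listed interactions of the original baits (x axis) in each role class (y axis), split by where they were called. Most of each bar was called in Sertoli cells only, except for the cullins and the core alpha class, which is 2 baits of Psma4 with 1 pre-granulosa call each.

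Psmd4 had the most contacts of the proteasome genes, whose baits had a median of 2 listed interactions, the same as all original baits. In the original table, a set of 11 Psm genes had 13 baits with 34 Sertoli calls, 17 pre-granulosa calls and 7 shared, and in the extended table a set of 17 genes had 20 baits with 67, 31 and 21. Psmd4 encodes a ubiquitin receptor of the regulatory particle. Its bait Psmd4-206 (chr3:95034914-95035537) lies within the gene, 7.08 kb from the RefSeq start, and held 15 of the 34 Sertoli calls. The bin 5.96 kb away, just outside Psmd4, scored 19.7 in Sertoli cells against 8.25 in pre-granulosa cells. Bins at 11.1 and 16.3 kb scored 18.0 and 11.2 in Sertoli cells and 9.81 and 5.08 in pre-granulosa cells. Over the lipid kinase gene Pip5k1a, 5 bins scored 5.88 to 10.7 in Sertoli cells, and 0.58 to 7.36 in pre-granulosa cells. In the extended table the bait of the internal start and that of Psmd4-202 contacted each other with 29.8 in Sertoli cells against 13.7 in pre-granulosa cells, and with 37.1 and 20.5 when read from Psmd4-202.

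Among the core subunits, both Psma4 baits had a single interaction, called in pre-granulosa cells. Psma4-201 scored 9.23 in pre-granulosa cells against 4.25 in Sertoli cells towards Hykk at 2.57 kb, and the neighbouring fragment Psma4-206 scored 6.68 and 4.93 within Psma4. The Sertoli scores lay just under the call score, and the extended bait called Hykk-201 in both cell types, with 5.61 in Sertoli cells against 6.14 in pre-granulosa cells. Psmb4-201 had 2 calls in each cell type and none in common. At 74.3 kb its bin scored 1.10 in Sertoli cells against 9.47 in pre-granulosa cells, and at 5.07 kb 5.77 and 1.62. Psmb10, a subunit of the immunoproteasome, had 4 Sertoli calls and 1 pre-granulosa call, among them Enkd1 and Pard6a at 233.5 kb with 5.75 in Sertoli cells against 0 in pre-granulosa cells. Its extended bait contacted the promoter bins of Nrn1l (14.2 against 4.75) and Dpep2nb (14.2 against 3.61), Sertoli cells first.

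The other proteasome members had 1 to 5 original interactions per bait. The base ATPase Psmc3 had 3 Sertoli calls with scores of 5.58 to 6.28, and from its extended bait the bin of Kbtbd4 and Ndufs3 scored 27.3 in Sertoli cells against 17.8 in pre-granulosa cells at 151.4 kb. Psmc4-201 had 1 call in each cell type, both over 9530053A07Rik. The 2 baits of Psmd13, a lid subunit, scored the bin over Bet1l and Odf3 7.41 and 5.02 in Sertoli cells and 1.55 and 1.02 in pre-granulosa cells. A bin a little farther out, beside Scgb1c1, scored 5.85 and 3.26 in Sertoli cells and 6.63 and 6.23 in pre-granulosa cells. The cell types were thus ordered oppositely at the 2 bins, from either bait. Psmd9, an assembly chaperone of the base, had 1 interaction, called in both cell types with 5.36 in Sertoli cells against 6.44 in pre-granulosa cells. Psmd5, the inhibitor gene Psmf1 and the assembly chaperone gene Psmg3 had Sertoli calls only at their original baits, while the extended baits of all 3 also had pre-granulosa calls. The single Psmg3 bin of the original bait scored 10.6 in Sertoli cells against 3.45 in pre-granulosa cells.

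The gap between the cell types was widest at 100 to 500 kb, where the member ratio lay above that of all baits. Within 10 kb members had 99 Sertoli and 63 pre-granulosa calls, a ratio of 1.57, and all baits had 1.44. At 10 to 25 kb the ratios were 1.54 and 1.68, so members were not above all baits at every distance. At 100 to 200 kb members had 101 and 25, a ratio of 4.04, and all baits had 2.67. In the extended table the ratio at 100 to 200 kb was 2.70 for members and 1.70 for all baits, from the same libraries. Of the 46 member baits with a call at that distance, 41 had more Sertoli calls, 3 more pre-granulosa calls and 2 equal numbers. Without the 8 baits with at least 5 Sertoli calls there, led by Klhl12-202 with 7, the member ratio was 4.58. With equal numbers of calls it was 1.92 for members and 1.26 for all baits. The median Sertoli call lay 39.4 kb from its member bait (32.1 to 47.2) and the median pre-granulosa call 22.1 kb (18.3 to 26.6), beside 42.6 and 26.0 kb over all baits. Shared calls had a median of 15.6 kb. No test of the difference between members and other baits was run, since calls of 1 bait are not independent.

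**Figure D5:**
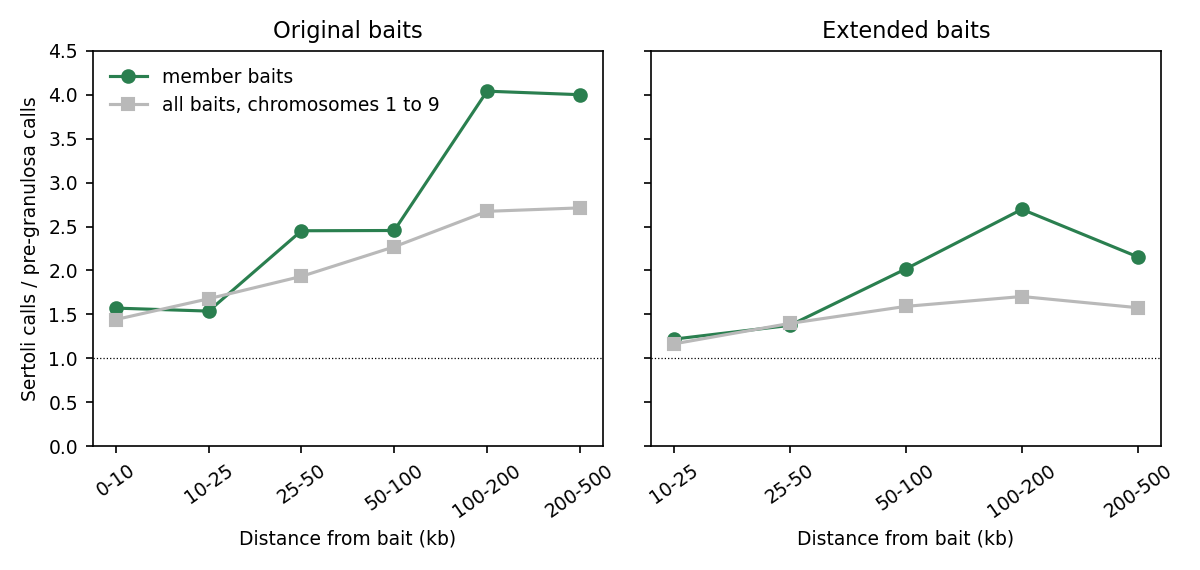
Ratio of Sertoli to pre-granulosa calls (y axis) by distance from the bait in kb (x axis) for member baits (green) and all baits of chromosomes 1 to 9 (grey), original baits on the left and extended baits on the right. At 100 to 200 kb the ratio was 4.04 for members and 2.67 for all original baits, and 2.70 and 1.70 for extended baits.

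Member contacts lay in the member's own gene, in another gene or between genes. RefSeq protein-coding genes were laid over the bins of the original baits. Of all 604 interactions, 27.3% touched the bait's own gene, 49.2% another gene and 23.5% no gene. Of the 136 shared ones, 42.6% touched the own gene and 34.6% another gene. Over the 7502 baits that name a RefSeq protein-coding gene, the own-gene share was 30.6% of listed and 40.6% of shared interactions, so the share was higher among shared calls there too. None of these differences was tested. Shared calls were also nearer to the bait, with the median given above. Of 516 bins, 73 were contacted by more than 1 member bait and 21 by more than 1 member gene, all 21 by neighbouring genes such as Usp4 with Usp19, Fbxl22 with Usp3 and Rnf181 with Usp39.

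The extended table also names promoters at the other end. A promoter was the partner in 598 of 1067 member interactions (56.0%), beside 54.8% over all extended baits, and 65.2% of these were also listed from the partner's side, beside 68.2%. Counted once per pair, there were 561 pairs, of which 486 joined a member with another gene, 45 joined 2 starts of 1 gene and 30 joined 2 different member genes. The pairs named next were picked for the highest lower score of the 2 cell types, so a call in both follows from the choice. Usp19 and the glutaminyl-tRNA synthetase gene Qars scored 40.8 in Sertoli cells against 29.9 in pre-granulosa cells. Klhl23 and Phospho2 scored 28.0 and 34.8, with the higher value in pre-granulosa cells. Usp5, in a bin with Cdca3, and the glycolytic gene Tpi1 scored 27.0 and 24.0.

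Pairs of 2 member genes were neighbours of different roles as well as copies of tandem families. The bin of Rnf224 and Slc34a3 and the bin of Rnf208 scored 40.4 in Sertoli cells against 22.6 in pre-granulosa cells at 10.5 kb. Trim28, a corepressor with a RING domain, and the bin of Ube2m and Chmp2a scored 43.7 and 26.8 at 11.5 kb. Rnf225 reached that Ube2m bin at 107.4 kb with 14.1 in Sertoli cells against 4.65 in pre-granulosa cells, and with 8.33 and 2.55 when read from Ube2m. Usp39, which acts in splicing, and Rnf181 scored 8.73 and 12.6 at 15.7 kb, and 12.1 and 14.5 when read from Rnf181. Fbxo6 and the bin of Fbxo44 and Fbxo2 scored 2.66 in Sertoli cells against 6.38 in pre-granulosa cells, with 3.09 and 5.90 in reverse. Fbxo27 and Fbxo17 scored 10.5 and 4.79, with 19.6 and 6.86 in reverse.

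Psmd5, which encodes an assembly factor of the regulatory particle, was paired with the F-box gene Fbxw2 through 2 starts. Towards Fbxw2-201 the score was 5.02 in Sertoli cells against 2.79 in pre-granulosa cells, and towards Fbxw2-205 it was 4.28 and 5.28. Read from Fbxw2 the values were 6.65 and 4.18, and 2.53 and 5.37. Each start had the same order of the cell types from either side, but both readings come from the same libraries and are not separate observations. Usp4 and Usp19 scored 7.25 and 3.75 at 122.4 kb from Usp4-204, and 6.41 and 3.51 in reverse. From Usp4-201 the same Usp19 bin, at 143.7 kb, scored 7.70 and 6.38, a call in both cell types that was not listed in reverse. Pairs within the Trim6, Trim12c, Trim34a and Trim30 cluster, the Usp17l genes and the Fbxw13 to Fbxw22 cluster lie within tandem families of similar sequence, where reads may be split between copies, and are uncertain. In total 11 of the 30 pairs had a call in both cell types, beside 255 of all 561 member promoter pairs and 221 of the 486 with other genes.

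The bait size changed the order of the cell types at some members. Of 142 original baits, 135 had a listed extended bait of the same name. The sign of the Sertoli minus pre-granulosa calls was the same at 87 and opposite at 15. Opposite signs were seen at Fbxw2-205, Fbxw9-201, Psmd13-210, Rnf2-204, Rnf13-201, Rnf150-201, Trim54-201, Trim68-201, Ube2m-203, Usp2-203, Usp6nl-202, Usp18-203 and Usp19-215. Each of these had an original excess of at most 2 calls. Klhl12-202, Klhl26-204, Rnf25-203, Rnf224-201, Usp4-204, Psmd4-206 and Fbxl19-206 had a Sertoli excess in both tables.

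Other genes of the pathway had call ratios and shares of 2-fold baits near or below those of all baits. A list of 157 further ubiquitin genes held 48 genes with 68 original baits, among them subunits of the anaphase-promoting complex, COP9 signalosome subunits and Nedd4-type ligases. They had 303 Sertoli and 168 pre-granulosa calls, a ratio of 1.80 beside 1.93 over all baits. The 115 shared interactions were 32.3% of those listed and 68.5% of the pre-granulosa calls, beside 21.7% and 52.3% over all baits, with no test of the difference. Znrf1-213, Wwp2-205 and Znrf1-210 held 48 of the 115. Without these 3, a choice made after seeing the data, the shared part was 67 of 278 listed interactions, or 24.1%. At least 2-fold more Sertoli calls were found at 33 baits (48.5%, all baits 49.0%) and 2-fold more pre-granulosa calls at 8 (11.8%, all baits 15.6%). In the extended table, 66 of the genes had 95 baits with 448 and 314 calls, a ratio of 1.43 beside 1.41 over all extended baits.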

How the data were processed

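Promoter capture Hi-C was made from 3 Sertoli and 2 pre-granulosa libraries, from sorted cells and with DpnII digestion, per the labels' protocols. The authors deposited 2 tables of CHiCAGO scores, with 1 score per interaction and cell type, in which libraries had been combined by a step not given in the sources used here. The genome build mm10 is named in the submitters' processing notes, and aligner and caller versions are not given in the sources used here. Read depth is unknown, so precision is given only as counting error.

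Bait names were split at commas, the transcript number was dropped and member symbols were matched. Members, gene lists and alternatives were chosen with earlier results of these data known. Calls were scores of at least 5 on rows within a chromosome. Ratios per bait used a pseudocount of 1, and a fold limit of 2 applied. Shares carry 95% Wilson intervals and medians 95% order-statistic intervals (Python 3.11.15, pandas 2.3.3, numpy 2.4.6, scipy 1.17.1, statsmodels 0.14.6). The counting was tested on simulated data. Bins were annotated with RefSeq protein-coding genes of GRCm38.p6, which does not resolve exons here. Baits named by rule were those with the most calls in their role class, the 5 largest excesses in each direction, the 5 with the most shared calls, the only member of a class and those turning between the tables. Interactions named by rule were the 5 shared ones with the highest lower score, the 5 most different and the 5 longest in each direction, all extended pairs of member genes and the 5 highest extended promoter pairs. All other named baits and bins, such as Uba7, Rnf19b, Rnf141, Fbxw5, Cul3 and the remaining proteasome baits, were chosen after their values were seen. Some member baits are counted but not reported here one by one. Alternatives were other thresholds, extended baits, a minimum distance, equal numbers of calls, leaving out bins listed at 0, another pseudocount and subsets of baits.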

Additional observations from a re-analysis of the deposited data

Results flagged for a closer look

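Interactions between chromosomes were left out of every comparison above. In the original table, 4 such member interactions were called, all in pre-granulosa cells and all listed at 0 in Sertoli cells. They came from Usp48-205, Trim6-202, Trim6-206 and Rnf150-201, with scores from 5.02 to 10.1. Over all original baits of chromosomes 1 to 9, pre-granulosa cells had 235 such calls and Sertoli cells 35, so the side of the member calls is that of most calls of this kind. The tables used here hold no control for this signal.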

How the results depend on the processing

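Over the member baits left in each alternative, Sertoli calls divided by pre-granulosa calls gave more than 1 under every alternative run. It was 2.88 at a threshold of 7, 3.22 at a threshold of 10, 1.63 with extended baits, 3.01 at 50 kb or more and 1.11 with equal numbers of calls. Ratios over all baits at thresholds of 7 and 10 are not given here, so these 2 values have no background. The shared percentage of pre-granulosa calls was 68 at a threshold of 7, 67.5 with extended baits, 41.3 at 50 kb or more, 44.9 with equal numbers and 48.8 without the 10 baits with the most interactions. That of Sertoli calls was 18.9 at a threshold of 10, 41.3 with extended baits, 13.7 at 50 kb or more, 40.3 with equal numbers and 23.3 without those 10 baits. Over all extended baits the shared percentages were 61.8 of pre-granulosa calls and 43.9 of Sertoli calls. The percentage of baits with 2-fold more Sertoli calls was 62.5 and 61.5 at thresholds of 7 and 10, 33.6 with extended baits, 62.1 at 50 kb or more and 25.0 with equal numbers, and with 2-fold more pre-granulosa calls 30.2 with equal numbers. The median Sertoli distance was 32.1 and 19.2 kb at thresholds of 7 and 10, 49.6 kb with extended baits, 102.8 kb at 50 kb or more and 28.5 kb without those 10 baits. The median pre-granulosa distance was 16.1, 10.1, 32.8 and 93.4 kb under the first 4 of these. With extended baits, the Sertoli minus pre-granulosa calls turned to -3 at Fbxw2-205, Trim54-201 and Trim68-201, to -1 at Rnf150-201, Rnf2-204, Usp18-203 and Usp6nl-202, to 1 at Rnf13-201, to 2 at Fbxw9-201, to 3 at Psmd13-210, Usp19-215 and Usp2-203 and to 6 at Ube2m-203. At a threshold of 7 they turned to 1 at Fbxw9-201. The cause was not tested. The 3 subsets of baits, near a RefSeq start, without the most connected baits and without tandem families, were chosen after seeing the data, as were the bait sets left out at 100 to 200 kb and among other pathway genes. No paired analysis was possible because the tables hold 1 column per cell type, and for the same reason no replicate could be left out. Read depth is unknown and limits every count.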
